A study of Mus musculus with 20 samples.

Results

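The genes described here are the selenoproteins and the genes that make, carry or bind selenium, measured in natural killer (NK) cells from the spleen of mice of which some had been given selenium. NK cells are lymphocytes that kill infected or transformed cells without prior sensitisation. Members were taken by gene name, with older and newer symbols accepted, and all 33 had at least 1 of the 52 probes that matched among 41174 on the array. The brightest probe stood for each gene. A gene was tested when that probe was well above background, by the scanner software's own flag, on at least 5 of the 20 arrays, which left 30 members among 17180 genes.

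All 20 mice were male C57BL/6 animals treated by gavage on each of 14 days, 5 per group. Control mice received water, the second group ptaquiloside (the carcinogenic glucoside of bracken fern) at 5.3 mg/kg, the third ptaquiloside at 5.3 mg/kg with selenium at 1.3 mg/kg, and the fourth selenium alone at 1.3 mg/kg. The chemical form of the selenium and the age of the mice are not given in the sources used here. NK cells were left unbound while other spleen cells were held on magnetic columns, and each array carried the RNA of a different donor, labelled with 1 dye. The design asks how each compound alone, and selenium on top of ptaquiloside, changes gene expression in these cells.

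Selenocysteine is built on its own transfer RNA and is inserted at a UGA codon that would otherwise end translation. A hairpin in the 3′ untranslated region of the messenger, read by dedicated binding proteins and an elongation factor, directs that insertion. The best known selenoproteins are the glutathione peroxidases and thioredoxin reductases, which remove peroxides and keep thiols reduced. In mice some selenoprotein messengers, Gpx1 and Selenow among them, are known to fall when selenium is short, whereas Gpx4 and the thioredoxin reductases are better preserved. Lymphocytes need selenoproteins to divide and to tolerate oxidative stress.

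Levels are given as scaled signal, the log2 of the background-subtracted intensity minus the array's own 75th percentile, so that 0 marks that percentile and 1 unit is a 2-fold difference. A probe's signal depends on its sequence, so levels are compared between mice for 1 gene and never between genes. On 19 arrays the 75th percentile lay between 45.5 and 133 scanner units, and between 51.7% and 60.8% of spots were well above background. The array of ptaquiloside mouse 4 had a percentile of 10.5, with 36.3% of spots well above background, and correlated with the others at 0.453 to 0.66 across genes, against 0.9 to 0.991 among the other 19. The next weakest was that of mouse 5 given both compounds, at 45.5. Each of the 5 slides held 1 mouse of each group with the same number, always in the same position, so position on the slide and treatment cannot be told apart. Markers of the labelled cell type were present: 12 of 12 NK marker genes were tested and 11 were well above background on 20 arrays. Markers of other cell types were also so on 20 arrays, 7 of 8 for dendritic cells, 6 of 7 for platelets and 6 of 9 for erythroid cells. For T cells these were 5 of 8, for neutrophils 6 of 10, for macrophages 7 of 13, for B cells 4 of 10 and for plasma cells 2 of 5. Each of these lists thus had detected markers, so detection alone does not tell cell types apart here. With 5 arrays in a group, precision is limited by their number.

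Of the 33 members, 21 were well above background on all 20 arrays and 7 on 19, the exception in each of these 7 being the weak array of ptaquiloside mouse 4. Sephs1 was detected on 18 arrays. Dio1, the deiodinase of liver and kidney that activates thyroid hormone, was detected on 14, which were 4 control, 4 ptaquiloside, 4 combined and 2 selenium arrays. The remaining 3 were not tested. Gpx3, the glutathione peroxidase secreted into plasma, was well above background on 2 of 20 arrays, and Dio3, which inactivates thyroid hormone, on 0. Lrp2 (megalin), the receptor that recovers selenoprotein P in the kidney, was so on 0 with its brightest probe. No member was saturated on any array.

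Probe sequences bear on what some values stand for. Selenbp1 and Selenbp2 are close relatives that bind selenium but carry no selenocysteine. Their probes, at chr3:94748620-94748679 and chr3:94508262-94508321 on mm9 (NCBI37), match over 54 bases with 3 differences. The last 30 bases of the match show 2 of these, here in capitals:
Selenbp1: ctcctggaagcaccAAgaaataaaatgctg
Selenbp2: ctcctggaagcaccTGgaaataaaatgctg
Counted from the first matching base the differences are G9A, A39T and A40G, Selenbp1 first. Across the 20 arrays the values of the pair correlated at r = 0.993, and their difference ranged only from -0.0139 to 0.25 (SD 0.0757), so the pair is treated as 1 measurement that cannot be split between the genes. The Selenok probe likewise matches a probe named LOC100134990 at 45 of 51 bases. No other probe on the array shared 20 bases in a row, on either strand, with the brightest probe of a member.

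No member differed between selenium and control beyond the spread between mice. With limma, 0 of 30 members passed an adjusted p of 0.05 (0% of all genes did), and 0 had an unadjusted p under 0.05 (1.07% of all genes). Without ptaquiloside mouse 4, an array that enters only the shared estimate of the spread here, these counts were again 0 members, beside 2.63% of all genes. The per-spot test that the deposited table's header names, run on unscaled signals, also gave 0 members before adjustment and 0 after it. Selenium mice were higher for 20 members and lower for 10 (53% of all genes were higher), with a median difference of 0.03 over the members and 0.02 over all genes, both on the log2 scale. When arrays were centred on their median instead, 25 members were higher, beside 63.5% of all genes. Differences ran from -0.19 for Dio1 to 0.28 for Selenbp1. No member had groups free of overlap (0.493% of all genes did). Markers of several cell types leaned to 1 side in this comparison, although 0 in these lists passed the adjusted threshold. NK markers were higher for 12 of 12 genes (median 0.26) and neutrophil markers for 9 of 10 (0.58). By contrast 0 of 10 B cell markers (-1.03), 0 of 8 T cell markers (-0.50) and 2 of 13 macrophage markers (-0.51) were higher. Platelet markers were higher for 7 of 7 (0.24), erythroid for 6 of 9 (0.13), plasma cell for 3 of 5 (0.15) and dendritic cell for 3 of 8 (-0.31). An unadjusted p under 0.05 in limma was reached by 0 NK, 2 neutrophil, 1 B cell, 1 T cell, 3 macrophage and 1 dendritic cell markers. Their part in the members' values was tested only for the relations given at the end. The 95% interval of the difference stayed within 2-fold in both directions for 24 of 30 members, and for 29 when the array of ptaquiloside mouse 4 was left out, Dio1 being the exception.

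**Figure D1:**
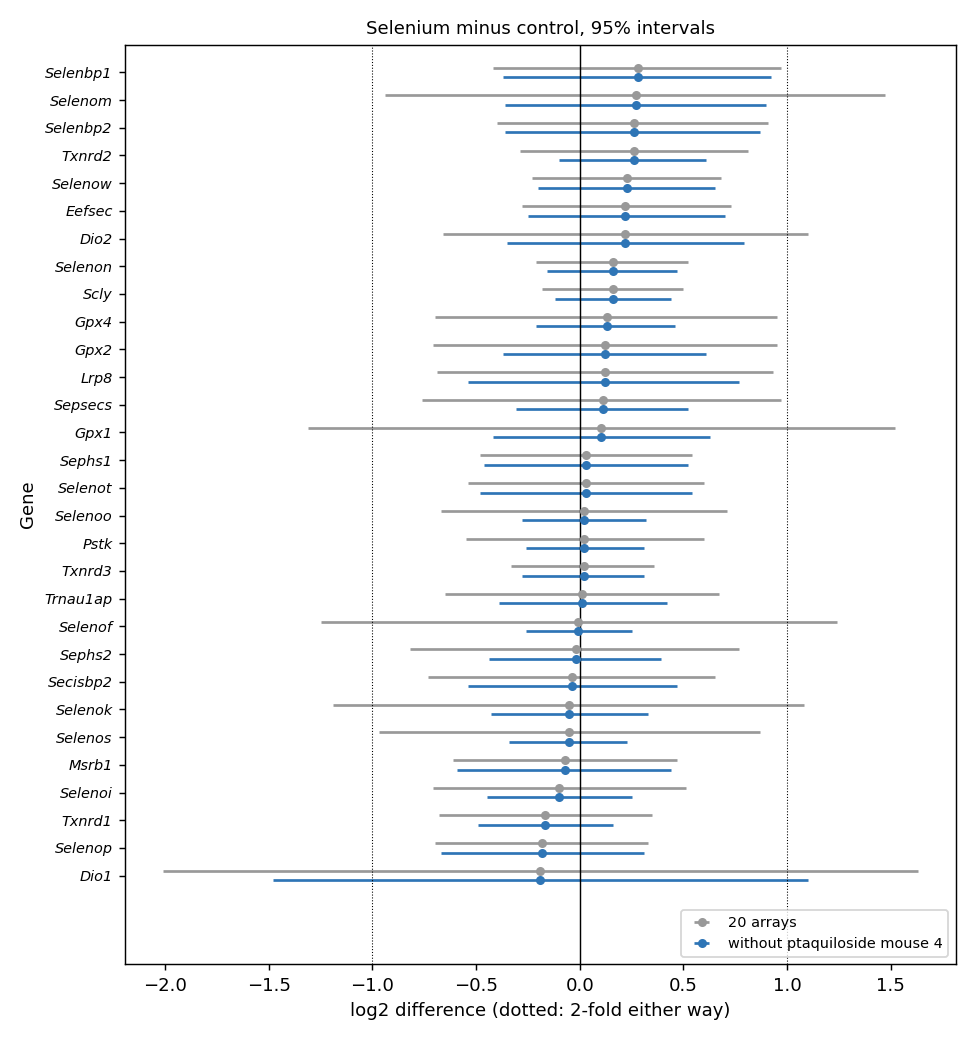
Difference between selenium and control mice for the 30 members tested, on the log2 scale, with 95% intervals of the limma fit over 20 arrays (grey) and without ptaquiloside mouse 4 (blue). All intervals include 0, and with that array left out 29 of 30 lie within the dotted lines at 2-fold.

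Among the peroxide and thiol enzymes, 5 of 6 were higher in selenium mice and 1 lower, with a median of 0.11, and none passed the test. Gpx1, the abundant cytosolic glutathione peroxidase, measured at chr9:108242276-108242335 on mm9, read 5.80, 6.50, 5.23, 5.83 and 5.83 in control mice and 5.74, 6.30, 5.76, 5.74 and 6.18 in selenium mice. The groups overlapped over most of their range, and the difference was 0.10 (95% interval -1.31 to 1.52, narrowing to -0.42 to 0.63 without ptaquiloside mouse 4). Gpx4, which reduces lipid hydroperoxides in membranes, was at 4.92 ± 0.36 in control and 5.04 ± 0.14 in selenium mice (SD, n = 5 each). Gpx2, the peroxidase of the gut lining, differed by 0.12. Txnrd2, the mitochondrial thioredoxin reductase, was 0.26 higher (interval -0.29 to 0.81), at 0.44 ± 0.30 against 0.69 ± 0.22, and was higher on 4 of 5 slides. Its 3 tested probes gave 0.26, 0.20 and 0.14. Txnrd3, the testis-rich reductase, differed by 0.02. Txnrd1, the cytosolic reductase, was the single enzyme of the 6 that was lower, by -0.17 (interval -0.68 to 0.35). The intervals of 5 of these 6 enzymes stayed within 2-fold of control, and that of Gpx1 was wider.

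Of the other selenoproteins 5 of 10 were higher and 5 lower, with a median of 0.01. Selenow, a small thiol-redox protein measured at chr7:16502553-16502612, had the smallest p of all members (limma, adjusted p = 1). Its control values were 3.61, 4.04, 3.27, 3.17 and 3.32, and its selenium values 3.71, 4.22, 3.79, 3.46 and 3.35. Each selenium mouse lay above the control of its own slide, by 0.03 to 0.52, while the ranges overlapped and the mean difference was 0.23 (interval -0.23 to 0.68), a 1.17-fold ratio. As each mouse was left out it ranged from 0.10 (without selenium mouse 2) to 0.37 (without control mouse 2). Selenom, a thiol protein of the endoplasmic reticulum, was the other member higher on 5 of 5 slides, by 0.12 to 0.45. It read 0.15, 0.76, 1.08, 0.83 and 0.58 in control and 0.60, 0.98, 1.20, 1.16 and 0.80 in selenium mice. These ranges also overlapped, and the difference of 0.27 had an interval of -0.94 to 1.47. The share of all genes that agreed on 5 of 5 slides was not counted, here or in later comparisons. No weight is therefore put on such agreement. Selenon, which guards calcium handling in muscle, differed by 0.16, and Msrb1, which repairs oxidised methionine, by -0.07.

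Of the selenoproteins of the endoplasmic reticulum, Selenof, a partner of the glycoprotein folding sensor, differed by -0.01. Selenok, which takes part in calcium flux of immune cells, and Selenos, of the degradation machinery of that compartment, each differed by -0.05. Selenot, a thioredoxin-like protein there, differed by 0.03, and Selenoi, a phospholipid synthase, by -0.10. Mitochondrial Selenoo, which attaches AMP to proteins, differed by 0.02. Selenos was among the steadiest members, at 3.14 ± 0.08 in control and 3.08 ± 0.19 in selenium mice (SD, n = 5 each). These 6 messengers therefore showed no difference from control that exceeded the spread, although the intervals of Selenof and Selenok reached past 2-fold when all 20 arrays were fitted.

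The 8 genes of selenocysteine synthesis and insertion had a median difference of 0.03, with 6 higher and 2 lower. Scly, which recycles selenium from selenocysteine, was 0.16 higher in selenium mice (interval -0.18 to 0.50), at 0.59 ± 0.22 against 0.43 ± 0.21. The second tested probe of Scly, well above background on 20 arrays, gave -0.03. Sephs2, itself a selenoprotein, makes the selenium donor and differed by -0.02. Its relative Sephs1 differed by 0.03. Pstk and Sepsecs, which convert serine on the transfer RNA to selenocysteine, differed by 0.02 and 0.11. Secisbp2, which binds the hairpin in selenoprotein messengers, differed by -0.04. Eefsec, the elongation factor that delivers the charged transfer RNA, differed by 0.22 (interval -0.28 to 0.73), at -0.25 ± 0.37 against -0.47 ± 0.43, and ranged from 0.09 (without control mouse 4) to 0.39 (without control mouse 2). Trnau1ap, which binds that transfer RNA, differed by 0.01. None of the 8 passed the test.

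Genes of transport and binding comprised Selenop, Lrp8 and the Selenbp pair. Selenop, the plasma carrier of selenium, read 4.36, 4.88, 4.51, 4.48 and 4.70 in control and 4.45, 4.80, 4.02, 4.04 and 4.71 in selenium mice. Macrophages also make it, and in bulk RNA fewer cells of a type and less RNA per cell cannot be told apart. Its difference was -0.18 (interval -0.70 to 0.33), and 2 selenium mice, those of slides 3 and 4, lay below every control. The receptor for it, Lrp8, differed by 0.12 with its brightest probe, but by -0.45 and -0.29 with its 2 other tested probes. Selenbp1 read 1.68, 2.59, 1.85, 1.36 and 0.96 in control and 2.36, 2.26, 1.75, 2.03 and 1.42 in selenium mice, a difference of 0.28 (interval -0.42 to 0.97), and Selenbp2 one of 0.26. The Selenbp1 difference ranged from 0.09 (without control mouse 5) to 0.50 (without control mouse 2). Control mouse 2 held the highest Selenbp1 value of all 20 arrays, and the groups overlapped.

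Of the 2 deiodinases tested, Dio2, which activates thyroid hormone inside cells, differed by 0.22 and Dio1 by -0.19. Dio1 spread most of all members, with an SD of 0.80 in control and 1.05 in selenium mice, and it was not well above background on 3 of 5 selenium arrays, so its difference is not firm in size or sign. The interval for Dio1 ran from -2.01 to 1.63.

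**Figure D2:**
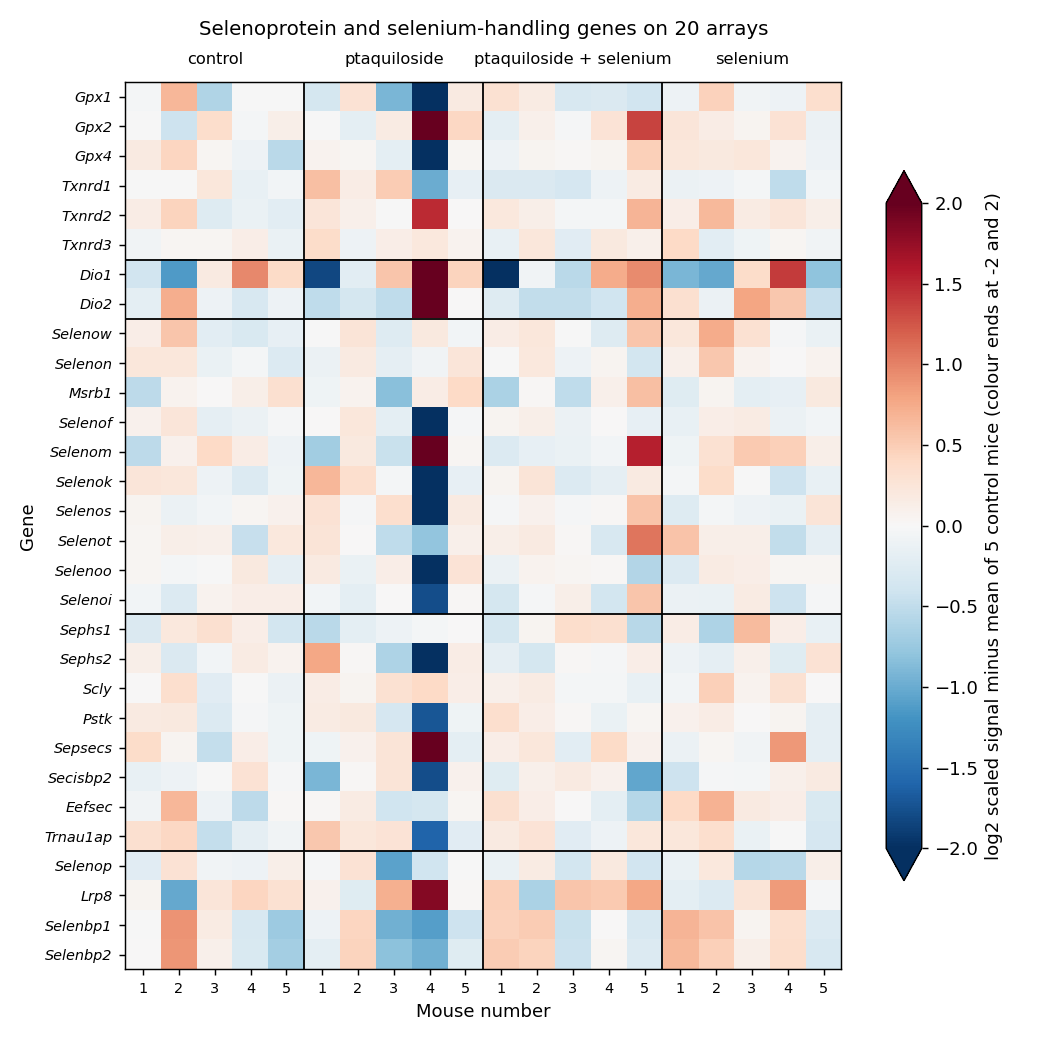
Scaled signal of the 30 members on each of the 20 arrays, as the log2 difference from the mean of the 5 control mice. Rows are grouped by role from the peroxide and thiol enzymes (top) to transport and binding (bottom), and the column of ptaquiloside mouse 4 stands apart, below all 19 other arrays for 15 members and above them for 7. Against the 18 arrays other than the 2 weakest it lay below for 40.3% of all genes and above for 39.1%.

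Other selenium and thiol genes, a list of 38 with 35 tested, gave 0 past the adjusted threshold in limma (0% of all genes). At an unadjusted p under 0.05 there were also 0 (1.07% of all genes). In selenium mice 21 of the 35 were higher (53% of all genes were), with a median of 0.05. The smallest p-values belonged to Prdx2, a peroxide-reducing peroxiredoxin (0.30, interval -0.22 to 0.82), Msrb3, a methionine repair enzyme (-0.49, interval -1.48 to 0.50), Txn1, the thioredoxin that Txnrd1 reduces (0.22, interval -0.25 to 0.69), and Sars, which charges the transfer RNA with serine (0.20, interval -0.24 to 0.63). Selenov, Cth and Cbs were not tested.

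Ptaquiloside alone gave 0 members past the adjusted threshold against control (0% of all genes) and 0 at an unadjusted p under 0.05 (1.47% of all genes, and 1.48% without mouse 4). No member had groups free of overlap (0.106% of all genes did). On 20 arrays 12 members were higher and 18 lower (49.6% of all genes were higher), with a median of -0.17, and with median scaling 6 were higher (33% of all genes). Without mouse 4 of that group the median was -0.01, with 14 higher and 16 lower. The 4 members with the smallest p were Gpx1, Selenof, Gpx2 and Secisbp2. Gpx1 read 5.48, 6.13, 4.93, 0.87 and 6.02 in ptaquiloside mice, so mouse 4 alone lay below all control values by more than 4 units. Its difference from control was -1.15 (interval -2.56 to 0.26; limma, adjusted p = 0.8), and -0.20 without that mouse. Selenof, at 3.70, 3.93, 3.51, -0.71 and 3.68, differed by -0.88, and by 0.00 without it. Gpx2 read 0.19, 0.01, 0.36, 2.66 and 0.62 and differed by 0.57, or 0.09 without mouse 4. For Secisbp2 the difference was -0.46, or -0.14 without it, and mouse 1 was also low, at -0.71 against 0.23, 0.47 and 0.29 in mice 2, 3 and 5. The differences of Gpx1, Selenof, Gpx2 and Secisbp2 thus shrank without this array, as did most others, while those of Scly (0.21, or 0.16 without it), Selenop (-0.24, or -0.20) and Sephs1 (-0.17, or -0.21) did so little or not at all. Txnrd1 went from 0.02 to 0.27 and Dio2 from 0.15 to -0.33. The weak array's values went both ways, with Selenom at 4.19 there against at most 2.24 on the others. In this comparison neutrophil markers were higher for 1 of 10 genes (median -0.53), B cell for 2 of 10 (-0.58), erythroid for 3 of 9 (-0.41) and NK for 3 of 12 (-0.14). Without mouse 4 these medians were -0.27, -0.52, -0.45 and 0.14. T cell markers were higher for 3 of 8, macrophage for 4 of 13, platelet for 3 of 7, dendritic cell for 3 of 8 and plasma cell for 2 of 5. The part of these markers was not tested.

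Mice given both compounds showed 0 members past the adjusted threshold against control (0% of all genes) and 0 at an unadjusted p under 0.05 (0.233% of all genes, and 0.6% without ptaquiloside mouse 4). No member had groups free of overlap (0.153% of all genes did). Here 16 members were higher and 14 lower (54.6% of all genes were higher), with a median of 0.01, and with median scaling 12 were higher (43.1% of all genes). Lrp8, Selenot, Gpx2 and Txnrd2 had the smallest p, with differences of 0.34, 0.21, 0.30 and 0.19. Without the 2 weakest arrays these became 0.23, 0.00, 0.04 and 0.06. Lrp8 was higher than the control of the same slide on 5 of 5 slides, at -2.33, -3.43, -2.24, -2.28 and -2.02 against -2.74, -3.83, -2.56, -2.37 and -2.50 (interval -0.47 to 1.15). Its 2 other tested probes were each well above background on 18 arrays. They had the opposite sign to the brightest probe between selenium and control, and their values for both compounds against control are not given here. Mouse 5, the second weakest array, was the highest of its group for each of the other 3, with Gpx2 at 1.56 against 0.01 to 0.47 in mice 1 to 4, Selenot at 3.64 against 2.26 to 2.76, and Txnrd2 at 1.12 against 0.40 to 0.64.

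Selenium added to ptaquiloside was compared with ptaquiloside alone. On 20 arrays 0 members passed the adjusted threshold (0% of all genes), 0 had an unadjusted p under 0.05 (2.38% of all genes), and 18 were higher and 12 lower (51.1% of all genes were higher), with a median of 0.14. With median scaling 23 were higher (64.7% of all genes). No member had groups free of overlap (0.188% of all genes did). Erythroid markers were higher for 9 of 9 genes (median 0.61), neutrophil for 9 of 10 (0.85), B cell for 9 of 10 (0.55) and NK for 10 of 12 (0.13). Without ptaquiloside mouse 4 these medians were 0.53, 0.71, 0.46 and -0.08. T cell markers were higher for 5 of 8, macrophage for 8 of 13, dendritic cell for 4 of 8, plasma cell for 3 of 5 and platelet for 1 of 7. The part of these markers in this comparison was not tested. Gpx4, Pstk, Gpx1 and Selenot had the smallest p, with differences of 0.65, 0.44, 1.05 and 0.40. Without ptaquiloside mouse 4 these became 0.12, 0.10, 0.09 and 0.25. Selenot's 2 other tested probes, each well above background on 19 arrays, gave -0.15 and -0.45 without that mouse. The second tested probe of Pstk gave 0.43. In the fit without ptaquiloside mouse 4 the member with the smallest p was Txnrd1, which is described here because of its value.

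Txnrd1, measured at chr10:82360230-82360289 on mm9, read 4.81, 4.35, 4.72, 3.21 and 4.04 in ptaquiloside mice 1 to 5 and 3.92, 3.92, 3.87, 4.10 and 4.37 in mice given both compounds. Control values were 4.20, 4.20, 4.43, 4.06 and 4.15, and selenium values 4.09, 4.10, 4.17, 3.70 and 4.16. On slides 1 to 3 the ptaquiloside mouse was the highest of its slide and the mouse given both the lowest, by 0.43 to 0.89 between them. On slides 4 and 5 the order turned, with differences of 0.90 and 0.32. Those slides hold the 2 weakest arrays. On 20 arrays the difference between both compounds and ptaquiloside was -0.19 (interval -0.70 to 0.32; limma, adjusted p = 0.823). Without ptaquiloside mouse 4 it was -0.44 (interval -0.79 to -0.10), with an unadjusted p of 0.0155 and an adjusted p of 0.998, beside 2.77% of all genes at an unadjusted p under 0.05. Without both weak arrays it was -0.53 (interval -0.87 to -0.18), with an unadjusted p of 0.00493 and an adjusted p of 1, beside 3.05% of all genes under 0.05. The change was therefore not called in any of these fits, and its sign differed between slides.

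**Figure D3:**
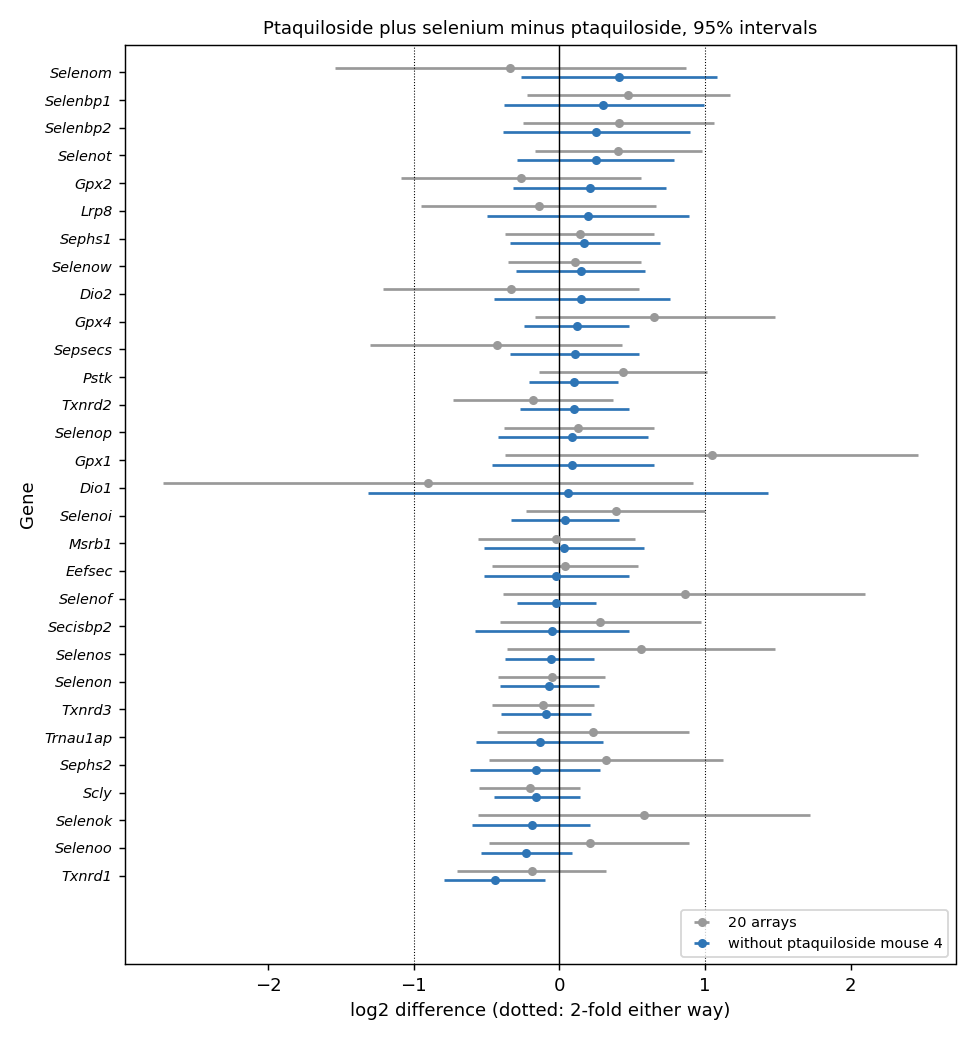
Difference between mice given ptaquiloside plus selenium and mice given ptaquiloside, for the 30 members on the log2 scale, with 95% intervals over 20 arrays (grey) and without ptaquiloside mouse 4 (blue). The grey value of Gpx1 at 1.05 falls to 0.09 in blue, and Txnrd1, at -0.44 in blue, is the single member whose blue interval leaves out 0.

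Txnrd1 is known in other cells as a target of the stress regulator NRF2, which binds antioxidant response elements. Among the 300-base RefSeq promoter windows of 32 members (GRCm38.p6, from 250 bases before to 50 after the start; Sepsecs had none), 3 held the core TGACNNNGC on either strand, which is 9.38%, against 14% of 27025 genes. These were Txnrd1, Lrp8 and Selenok. The Txnrd1 match lies on the strand opposite to the gene, 92 bases before the start, and is shown because this gene had the smallest p among members in the fit above, with the core in capitals within chr10:82859104-82859133 (plus strand, GRCm38.p6):
Txnrd1: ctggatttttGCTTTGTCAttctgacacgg
The core shares its first 4 bases with the AP-1 motif. A match of this kind describes the letters and does not show binding.

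Ptaquiloside added to selenium was compared with selenium alone, and 0 members passed the adjusted threshold (0% of all genes), with 0 at an unadjusted p under 0.05 (0.594% of all genes, and 1.72% without ptaquiloside mouse 4). No member had groups free of overlap (0.158% of all genes did). In this comparison 12 were higher and 18 lower (49.8% of all genes were higher), with a median of -0.02, and with median scaling 4 were higher (30.8% of all genes). Eefsec, Selenon, Scly and Dio2 had the smallest p, with differences of -0.29, -0.20, -0.15 and -0.40. Without the 2 weakest arrays these became -0.16, -0.12, -0.11 and -0.63. In that fit 1 member had an unadjusted p under 0.05, beside 1.84% of all genes. This was Dio2 (interval -1.14 to -0.11; limma, adjusted p = 1), which read -2.76, -3.00, -3.00, -2.90 and -1.77 with both compounds and -2.18, -2.62, -1.71, -1.96 and -2.96 with selenium. Mouse 5 ran opposite to mice 1 to 4 on its slide. Eefsec was lower on 5 of 5 slides, at -0.16, -0.34, -0.47, -0.67 and -1.05 with both compounds against -0.07, 0.22, -0.29, -0.34 and -0.78 with selenium (interval -0.79 to 0.22). These ranges overlapped.

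Averaged over mice with and without ptaquiloside, selenium gave 0 members past the adjusted threshold (0% of all genes) and 0 at an unadjusted p under 0.05 (2.1% of all genes), with 19 higher and 11 lower (51.1% of all genes were higher) and a median of 0.12, or 0.05 without ptaquiloside mouse 4. With median scaling 27 were higher (66.6% of all genes). Selenbp1, Selenbp2, Gpx4 and Gpx1 had the smallest p, with differences of 0.37, 0.33, 0.39 and 0.58, which were 0.29, 0.25, 0.12 and 0.10 without that mouse. Neutrophil markers were higher for 9 of 10 (median 0.79; limma, 6 of 10 at an unadjusted p under 0.05, 0 past the adjusted threshold). Erythroid markers were higher for 7 of 9 (0.32) and NK markers for 11 of 12 (0.18). Without ptaquiloside mouse 4 these 3 medians were 0.63, 0.47 and 0.08. By contrast 1 of 10 B cell (-0.32), 1 of 8 T cell (-0.21) and 2 of 13 macrophage markers (-0.21) were higher. For platelet, dendritic cell and plasma cell markers 3 of 7, 4 of 8 and 3 of 5 were higher. Their part was not tested beyond the relations given at the end. Selenbp1 had an interval of -0.12 to 0.86 (limma, adjusted p = 0.959). With the slide as a block it had an unadjusted p of 0.0352 and an adjusted p of 0.886, beside 3.7% of all genes under 0.05. In that limma fit Selenbp2, treated as the same measurement, had an unadjusted p of 0.0587. Selenbp1 read 1.59, 2.12, 0.72, 0.59 and 1.28 in ptaquiloside mice and 2.15, 2.20, 1.25, 1.69 and 1.37 in mice given both, higher with both on 5 of 5 slides by 0.08 to 1.10. The Selenbp2 probe was higher with both on 3 of 5 slides, with differences of -0.01 on slide 2 and -0.04 on slide 5. Between selenium and control, Selenbp1 ran the other way on slides 2 and 3, at -0.33 and -0.10. Txnrd1 without ptaquiloside mouse 4 had a main effect of -0.30 (interval -0.54 to -0.07), with an unadjusted p of 0.0156 and an adjusted p of 1, beside 3.69% of all genes under 0.05, and without both weak arrays 1 member, again Txnrd1, was under 0.05 beside 4.64% of all genes.

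**Figure D4:**
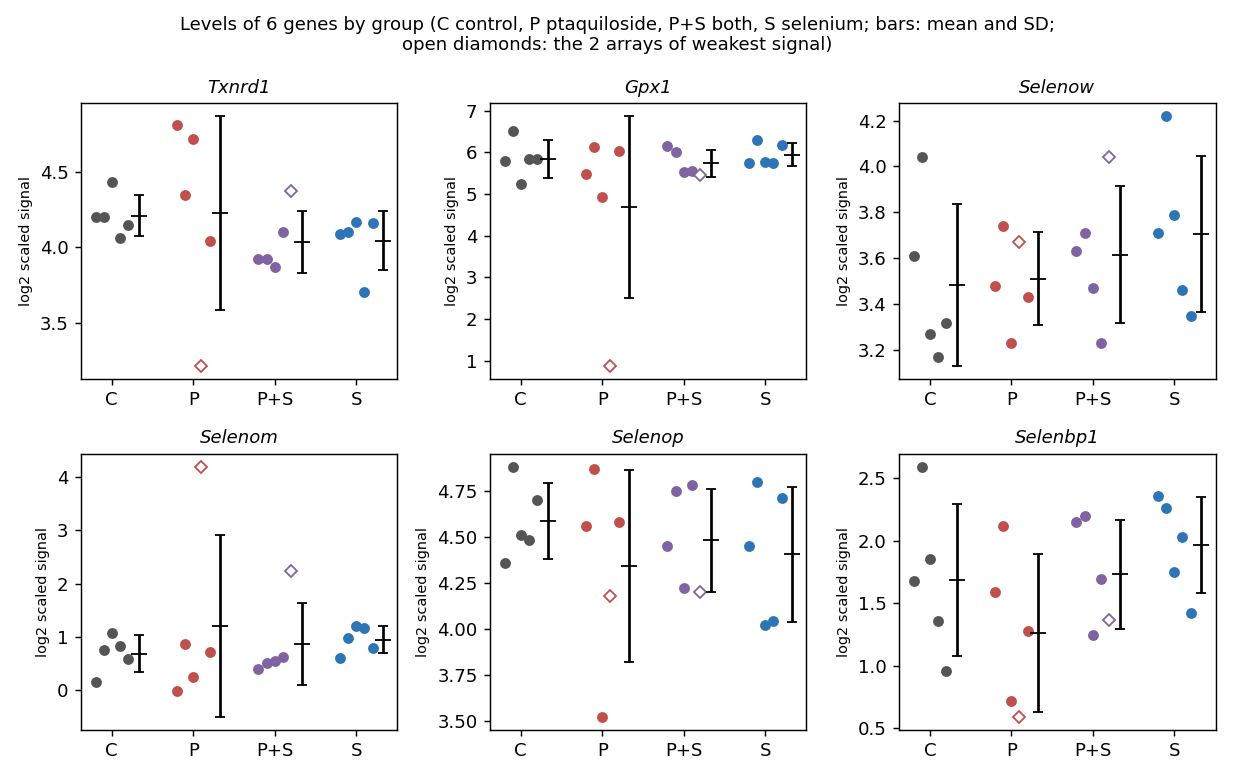
Scaled signal (log2) of Txnrd1, Gpx1, Selenow, Selenom, Selenop and Selenbp1 in each mouse of the 4 groups, with the group mean and SD over 5 mice. Open diamonds mark the 2 weakest arrays: ptaquiloside mouse 4 lies at 0.87 for Gpx1 and 4.19 for Selenom, and all other groups overlap.

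The effect of selenium was also compared between mice with and without ptaquiloside. This interaction gave 0 members past the adjusted threshold (0% of all genes) and 0 at an unadjusted p under 0.05 (1.19% of all genes, and 2.27% without ptaquiloside mouse 4), with 17 above 0 and 13 below (51.5% of all genes were above) and a median of 0.13, or -0.01 without ptaquiloside mouse 4. Scly had the smallest p, with an interaction of -0.36 (interval -0.85 to 0.12; limma, adjusted p = 0.998) and -0.32 without that mouse. Next were Selenoi at 0.49, Txnrd2 at -0.43 and Pstk at 0.41, which became 0.14, -0.15 and 0.07. The second Scly probe, well above background on 20 arrays, differed by -0.03 between selenium and control. Between both compounds and ptaquiloside without that mouse it also differed by -0.03, against -0.16 for the brightest probe. In the test of any difference among the 4 groups 0 members passed (0% of all genes), and 0 had an unadjusted p under 0.05 (0.955% of all genes, and 1.68% without ptaquiloside mouse 4). Selenbp1, Gpx1, Gpx4 and Selenbp2 had the smallest p (limma, adjusted p = 1 for each).

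The spread between mice was large beside the differences given above. The SD over the 5 control mice ranged from 0.08 for Selenos to 0.80 for Dio1, with a median of 0.29 over the 30 members. The median SD was 0.24 with selenium, 0.30 with both compounds and 0.81 with ptaquiloside, the last falling to 0.26 without mouse 4. Over the 19 arrays other than that one, slides held 69.3% of the sum of squares of Lrp8, 68.8% of Msrb1, 68.3% of Dio1, 66.5% of Pstk, 65.7% of Selenok, 62.4% of Selenbp1 and 58.9% of Gpx1. The share of slides was low for others, such as 2.2% for Dio2, 11.6% for Gpx4 and 15.5% for Selenoo. Groups held 34.7% for Txnrd1, against 17.6% for slides, and 0.332% for Selenof. These shares were computed for the members only, not for all genes.

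Because each slide held 1 mouse of every group, all comparisons were also fitted with the slide as a block, and 0 members passed the adjusted threshold in any of them. At an unadjusted p under 0.05 there were 0 members for selenium against control (1.91% of all genes), 0 for ptaquiloside against control (2.58%) and 0 for both compounds against control (0.402%). There were likewise 0 for both compounds against ptaquiloside (4.03%), 0 against selenium (1.14%) and 0 for the interaction (2.07%). Selenbp1 was the 1 member under 0.05 for the main effect, given above, and for any difference among the 4 groups (2.11% of all genes), where its adjusted p was 0.958 in limma. With the block and without ptaquiloside mouse 4, Txnrd1 and Selenbp1 were under 0.05 for the main effect, at -0.29 and 0.30 (6.59% of all genes), and Txnrd1 for both compounds against ptaquiloside, at -0.41 (4.51%). Selenbp2 did not reach 0.05 in either fit. Its unadjusted limma p with the block was 0.107 for any difference, and 0.0857 for the main effect without that mouse.

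The second weakest array, mouse 5 with both compounds, lay above all 18 remaining arrays for 8 members and below them for 4 (28.5% and 15.4% of all genes). Selenom read 2.24 there against -0.01 to 1.20, Gpx2 1.56 against -0.21 to 0.62, and Selenot 3.64 against 2.07 to 3.15. For 5 members it lay on the same outer side as the array of ptaquiloside mouse 4, and for 4 on the opposite side. The part of signal strength in these values was not tested.

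Several members are made mainly by other cells, and markers of such cells were present in the isolates. Cd79a (B cells), Cd3d and Cd3e (T cells), Csf1r and C1qa (macrophages), S100a9 (neutrophils) and Hba-a1 (red cells) were well above background on 20 arrays, and Themis of the T cell list on 0. Between selenium and control mice the mean of 13 macrophage markers ranged from -0.23 to 1.07 in control and from -0.40 to 0.42 in selenium mice, with 2 of 13 higher. Selenop, made by macrophages among other cells, correlated with that mean at r = 0.302 (rho = 0.2) over 20 arrays, with a permutation p of 0.197, adjusted to 0.328 over 5 relations. It was 0.288 without the 2 arrays farthest from the median marker level and 0.384 with slide means removed. Selenbp1 and the mean of 9 erythroid markers gave r = 0.527 (rho = 0.417, permutation p = 0.0175, adjusted p = 0.0852), which was 0.564 without the 2 outermost arrays, 0.58 without ptaquiloside mouse 4 and 0.354 with slide means removed.

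Erythroid markers lay between -0.999 and 0.31 in control mice and between -1.32 and 0.03 in selenium mice, with 6 of 9 higher. Gpx1, abundant in red and myeloid cells, gave r = 0.12 with them (rho = 0.105, permutation p = 0.614, adjusted p = 0.614), 0.0488 without the 2 outermost arrays and 0.1 with slide means removed. With 10 neutrophil markers Gpx1 gave r = 0.532 (rho = 0.238, permutation p = 0.0341, adjusted p = 0.0852). That relation rested on the weakest array, since it was 0.135 without ptaquiloside mouse 4 and 0.185 without the 2 outermost arrays, while it was 0.549 with slide means removed (adjusted permutation p = 0.0587). Neutrophil markers ranged from 2.38 to 3.04 in control and from 2.21 to 4.17 in selenium mice, with 9 of 10 higher. Selenom and 10 B cell markers gave r = -0.217 (rho = -0.543, permutation p = 0.379 for r and 0.0148 for rho, adjusted 0.474 and 0.0742), and 0.00815 with slide means removed. Without the 2 outermost arrays r was -0.333 and rho -0.653, with a permutation p of 0.00426 for rho, adjusted to 0.0213. B cell markers were lower in selenium mice for 10 of 10, from -1.15 to 0.43 in control and from -2.10 to -0.69 in selenium mice. Over 20 arrays 0 of these 5 relations passed the adjusted threshold with this scaling. With arrays centred on their median all 5 did, with Selenop at r = 0.787 and Gpx1 with erythroid markers at r = 0.677, and 2 did with each of normexp background and quantile scaling. The part of other cells in the members' values was not tested beyond them.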

How the data were processed

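Members and gene lists were chosen with earlier results of these data known. Deposited scanner files hold spot intensity values, made with Agilent Feature Extraction 9.5.3.1 per the submitters' processing notes. The processed signal is background-subtracted and not scaled between arrays, per the file headers. Flags of unit other, per the file headers, mark control, outlier, saturated and well-above-background spots. A table of log2 values, deposited by the authors, equals log2 processed signal plus 19.93 in the 10 columns named for 1 sample. Its header, by the authors, states that 2 arrays were replaced by group means and that spots were called by t-test, false discovery rate and a limit of 2-fold. It is not centred (column medians 22.79 to 23.64). It entered only as an alternative, and its 5 control columns were not used.

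Here log2 processed signal minus each array's 75th percentile was computed over non-control spots, outlier spots were left out and spots of a probe averaged. Of 41174 probes 25097 were named by accession, 6333 by current symbol, 1640 by a single older name, and 8104 kept the file's name. For a gene with several probes the brightest was used. In 6 of the 9 members with several tested probes (Selenot, Selenoi, Scly, Pstk, Sepsecs and Lrp8) the probes differed in sign between selenium and control. Tests used limma 3.58.1 in R 4.3.3, 1 mean per group over 20 arrays, two-sided, with Benjamini-Hochberg adjustment over 17180 genes at 0.05 for each comparison. There were 278 missing values, none in a member tested. The fit was tested on simulated data with independent noise, spreads taken without ptaquiloside mouse 4 and no slide effect. That test therefore does not cover the weak array or the slides. Correlations used 100000 resamples. A sixth planned relation, Gpx3 with platelet markers, was not run because Gpx3 was not tested.

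Named are all members tested for selenium against control, and elsewhere the 4 with the smallest p. Txnrd1 in other comparisons, and Scly, Selenop, Sephs1, Selenom and Dio2 for ptaquiloside against control, were chosen after their values were seen. Mouse numbers mark the slide, and the labels give different donors. Deviations of same-numbered mice correlated at -0.343 to 0.712, not above 0.1 for every pair, so the numbers were not taken as pairs of mice. The slide is a batch shared by the 4 groups, so fits with it as a block are given beside those without it. Probe coordinates are on mm9 (NCBI37) as the files give them, without exon annotation. Promoters are from RefSeq.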

Additional observations from a re-analysis of the deposited data

Results flagged for a closer look

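In groups of 5 mice, a mouse was singled out when its gap to the nearest other mouse exceeded 0.71 of the group's range (Dixon's 95% limit). Chance gives about 1 such group in 20, and 26 of 120 groups (21.7%) had one. Of these, 13 were ptaquiloside mouse 4, low for 8 members and high for 5.

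On the low side that mouse read 0.87 for Gpx1, 2.22 for Gpx4, -0.71 for Selenof, 2.16 for Selenok, 0.21 for Selenos, -0.81 for Selenoo, -2.39 for Selenoi and -1.65 for Pstk. On the high side it read 2.66 for Gpx2, 1.92 for Txnrd2, -0.43 for Dio2, 4.19 for Selenom and 0.11 for Sepsecs. Mouse 5 with both compounds stood apart at 5.39 for Gpx4, -1.77 for Dio2, 2.24 for Selenom and 3.71 for Selenos, all high, and at 0.66 for Selenoo, low. Both arrays had the weakest signal, and its part was not tested.

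Lrp8, the Selenop receptor, was low in mouse 2 of the control group (-3.83) and of the group given both compounds (-3.43), which shared a slide. Dio2 was high in control mouse 2 (-1.78), and Selenot low in control mouse 4 (2.11). Selenium mouse 2 was high for Txnrd2 (1.08) and Selenon (2.69). Selenium mouse 4 was low for Txnrd1 (3.70) and high for Sepsecs (-1.75).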

How the results depend on the processing

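Members past the adjusted threshold numbered 0 in every comparison under every alternative run. These were median and quantile scaling, normexp background, stricter and no filter, the mean of all tested probes, outlier spots kept, array weights, the replicate block with and without ptaquiloside mouse 4, each mouse left out, only the groups compared, the deposited table and the methods' t-test. Leaving out the 2 weakest arrays was added after seeing the data. The deposited table could be used only for both compounds against ptaquiloside and against selenium. The block on mouse number, which is the slide, left the median difference of selenium against control at 0.03 and changed no call. The median half-width of the members' 95% interval for selenium against control was 0.67, and 0.42 without ptaquiloside mouse 4, 0.56 with the block and 0.36 with both.

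The members' median for ptaquiloside against control, -0.17, was -0.40 with median scaling, 0.04 with array weights, -0.91 in the methods' t-test on unscaled signals and -0.01 without the 2 weakest arrays, and lay between -0.22 and -0.01 as each mouse was left out. In that t-test the median was -0.12 for selenium and -0.19 for both compounds against control. The main effect of selenium had a median of 0.24 with median scaling, and the interaction one of -0.10 with array weights and -0.11 without the 2 weakest arrays. Median scaling shifted the median of all genes by -0.23 for ptaquiloside against control and by 0.19 for both compounds against ptaquiloside. The members' median SD in control mice was 0.40 with median scaling.

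Some differences between selenium and control changed sign, none of them called. With array weights Lrp8 was -0.05, Selenok 0.02 and Selenof 0.06. With the mean of all probes Selenoi was 0.04, Lrp8 -0.21, Sepsecs -0.07, Selenot -0.12 and Pstk -0.05. With median scaling Selenos was 0.01, Secisbp2 0.02, Selenok 0.01, Sephs2 0.03 and Selenof 0.05. With normexp Sepsecs was -0.02, Sephs1 -0.06, Txnrd3 -0.03 and Selenof 0.05. With quantile scaling Selenot was -0.02 and Trnau1ap -0.03. In the methods' t-test Gpx4, Lrp8 and Gpx2 were -0.03, Sepsecs and Gpx1 -0.05, Sephs1 -0.12, Txnrd3 and Trnau1ap -0.14, and Selenot, Pstk and Selenoo -0.13. In other comparisons, Selenof for ptaquiloside against control was 0.03 with array weights and 0.00 without the weakest arrays, and Gpx2 there was -0.18 in the t-test. For both compounds against control Lrp8 was -0.02 with array weights, Selenot -0.04 with the mean of all probes and Txnrd2 -0.01 in the t-test. The interaction of Selenoi was -0.09 with the mean of all probes. As each mouse was left out, selenium against control ranged from -0.59 to 0.05 for Dio1, -0.05 to 0.27 for Gpx1, -0.01 to 0.23 for Gpx4, -0.14 to 0.23 for Lrp8, -0.20 to 0.01 for Msrb1, -0.05 to 0.07 for Pstk, -0.09 to 0.06 for Secisbp2, -0.05 to 0.05 for Selenof, -0.16 to 0.04 for Selenok, -0.02 to 0.10 for Selenoo, -0.11 to 0.16 for Selenot, -0.12 to 0.19 for Sephs1, -0.10 to 0.03 for Sephs2, -0.08 to 0.20 for Sepsecs, -0.11 to 0.12 for Trnau1ap and -0.08 to 0.07 for Txnrd3. Selenof for ptaquiloside against control ranged from -1.16 to 0.00.

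The relations with other cells' markers passed the adjusted threshold with median scaling, at 0.787 for Selenop and macrophages, 0.677 and 0.824 for Gpx1 with erythroid and neutrophil markers, 0.818 for Selenbp1 and -0.527 for Selenom. With normexp Selenop was at 0.631 and Gpx1 with neutrophils at 0.673, and with quantile scaling Selenbp1 was at 0.667 and Selenom at -0.468, all past it. Selenom was at 0.00815 with slide means removed. The cause of these changes was not tested.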
